A study of Mus musculus with 6 samples.

Results

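The genes described here are 48 genes of ribosome biogenesis, the building of ribosomes in the nucleolus. They were chosen by symbol, as known factors of the pathway, and all 48 were found once among the 16135 genes listed, with reads in every library. The cells were common dendritic cell progenitors, which are the source of dendritic cells, taken from the bone marrow of wildtype C57BL/6 mice aged 6 to 8 weeks. Flow sorting had split them by the surface proteins CD115 (the M-CSF receptor) and Ly6C (an antigen of monocytes and their precursors) into 3 subsets, CD115+Ly6C-, CD115+Ly6C+ and CD115-Ly6C-. No group carried a transgene, a deletion or a treatment in the labels. Each subset had 2 polyA-selected RNA libraries, which the labels do not say came from separate animals or sorts, so p-values measure only the spread between these libraries, which may be technical.

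Ribosomal RNA is transcribed by RNA polymerase I, modified by small nucleolar ribonucleoproteins (snoRNPs), and cut and folded inside large assembly particles while ribosomal proteins join. Separate sets of assembly factors build the small (40S) and the large (60S) subunit, and most leave before the ribosome is complete. Dividing blood progenitors make many ribosomes, and the transcription factor Myc is a well-known activator of genes of this pathway.

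Expected counts summed to between 17961541 and 19450329 per library. All 6 progenitor markers, Flt3, Kit, Csf1r, Cd34, Irf8 and Spi1, were present. Their summed level was 4368 to 5312 CPM (counts corrected for library size, here with TMM scaling), but single markers moved in opposite directions. Flt3, Kit and Cd34 were lowest in CD115+Ly6C+ and highest in CD115-Ly6C- (Kit 58.8 and 48.9 against 189 and 169 CPM). Csf1r, Irf8 and Spi1 were lowest in CD115-Ly6C- (Csf1r 213 and 259 CPM, against 553 and 531 in CD115+Ly6C+). Neutrophil, monocyte and lymphoid markers also moved with the subsets. The 10 neutrophil markers summed to 3916 and 4196 CPM for CD115+Ly6C+, 229 and 908 for CD115+Ly6C-, and 149 and 311 for CD115-Ly6C-. Against either other subset, all 10 were called higher for CD115+Ly6C+. The 7 monocyte markers summed to 6591 and 7222, 2577 and 2691, and 776 and 1006 CPM in the same order. Of 9 lymphoid markers tested, 7 were called higher in CD115-Ly6C- than in either other subset. The 9 summed to 2931 and 3357 CPM there against 133 to 529 in the other 4 libraries. Most of this sum was Dntt, at 2540 and 2936 CPM in CD115-Ly6C-, and Cd79b did not follow, at 76.6 to 101.6 CPM over all libraries. Cd3e, a defining T cell marker on the same list, was not tested and had 1 count over all libraries. Erythroid markers were low, at a sum of 5.15 to 18.6 CPM in a library, and overlapped between the subsets. Markers of mature dendritic cells ran in both directions, with Siglech highest in CD115-Ly6C- and Clec9a and Cd209a highest in CD115+Ly6C+. The part of these other cells in the results below was not tested. In bulk RNA, fewer cells of a type and less RNA per cell cannot be told apart.

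The 48 genes took a slightly smaller share of the counts in CD115+Ly6C+ than in the other subsets. Together they held 0.582% and 0.529% of the counts in the CD115+Ly6C+ libraries, 0.707% and 0.641% for CD115+Ly6C-, and 0.688% and 0.645% for CD115-Ly6C-. The groups did not overlap between CD115+Ly6C+ and either other subset. With TMM scaling, the mean level was lowest in CD115+Ly6C+ for 33 genes, in CD115-Ly6C- for 13 and in CD115+Ly6C- for 2. It was highest in CD115+Ly6C- for 26, in CD115-Ly6C- for 13 and in CD115+Ly6C+ for 9. All changes were modest: 0 of the 48 genes reached a 2-fold difference in any comparison, and 31 passed no test. These numbers of genes were not set beside numbers over all genes tested, so they do not show whether the set stood out. Shares over all genes are given with each comparison below.

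**Figure D1:**
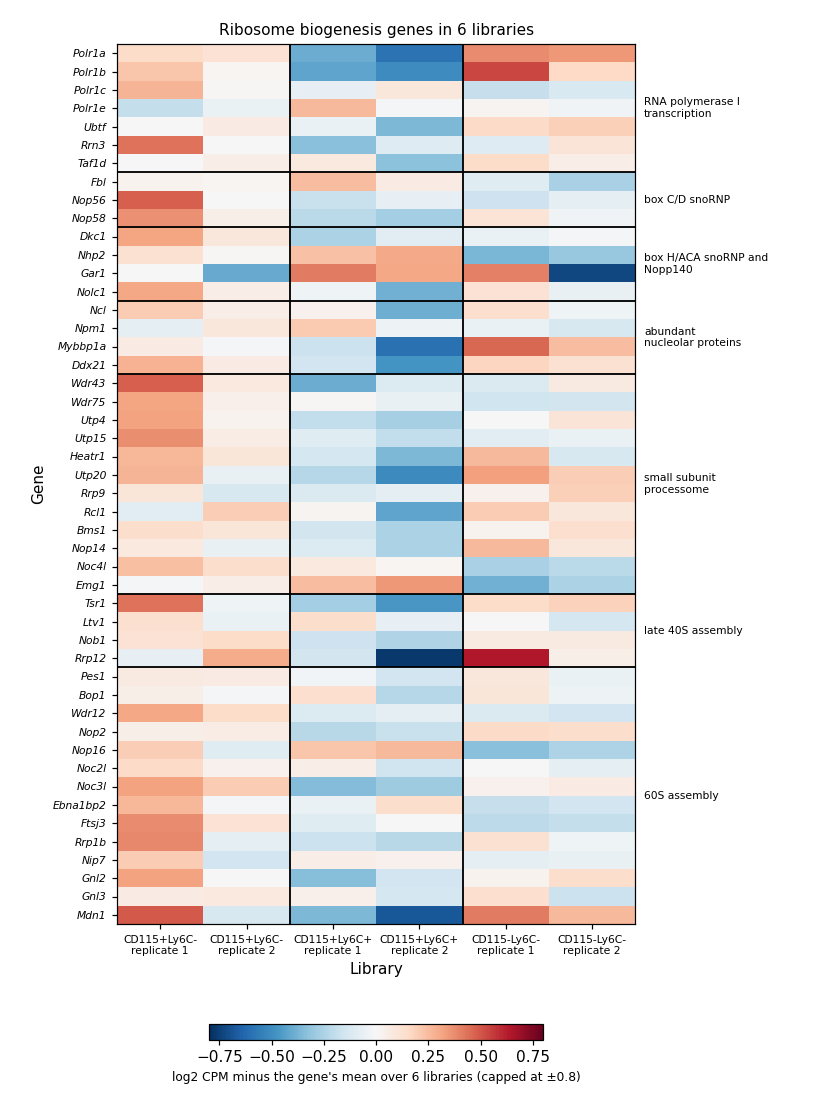
Level of each of the 48 genes (rows, grouped by role) in each of the 6 libraries (columns), as log2 CPM minus the gene's mean over the libraries, with the colour capped at 0.8 either way. Blue prevails in the middle pair of columns, CD115+Ly6C+, where the median gene stood at -0.10 and -0.17, while Nhp2, Emg1 and Nop16 are among the rows that run the other way.

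In CD115+Ly6C+ against CD115+Ly6C-, the median gene of the set was lower by a small amount, and few single genes passed the test. The median log2 fold change was -0.30, against -0.01 over all 12127 genes tested, with 9 values above 0 and 39 below. Only Polr1a, the largest subunit of RNA polymerase I, was called lower and 0 genes were called higher (edgeR adjusted p under 0.05), 2.08% of the 48 beside 9.6% of all genes tested (5.26% higher and 4.34% lower), so the share of calls lay below the background. DESeq2 also called 0 higher. At an unadjusted edgeR p under 0.05, 1 gene was higher and 23 were lower, where 14.2% of all genes were higher and 13.7% lower. Both CD115+Ly6C+ libraries lay below both CD115+Ly6C- libraries for 32 genes and above for 6, where 28.4% of all genes lay below and 28.8% above. The count of lower calls was 12 when libraries were scaled by their totals only, 10 with no filter on low counts and 8 with DESeq2, and lay between 0 and 3 when a library was left out: 0 without replicate 1 of CD115+Ly6C- or without a library of CD115+Ly6C+, 3 without CD115+Ly6C- replicate 2, and 2 without either CD115-Ly6C- library. The median was -0.21 without CD115+Ly6C- replicate 1. With library totals the 12 were 25% of the 48, where 1262 of the 12127 genes tested were called, 38.4% of them higher. Under that scaling the share of calls thus lay above the background, not below it. Over all genes, 1810 were called with no filter and 1691 with DESeq2.

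Levels of most genes were close in CD115-Ly6C- against CD115+Ly6C-. The median log2 fold change was -0.10 (0.02 over all genes tested), and with scaling by library totals, which moved the median of all genes by 0.12, it was 0.03. Relative to the median of all genes it was -0.115 and -0.114 under these scalings. Nhp2, Noc4l, Wdr12 and Ftsj3 were called lower and 0 genes higher, 8.33% of the 48 beside 15.2% of all genes (8.43% higher and 6.78% lower), again a share below the background. At an unadjusted edgeR p, 0 were higher and 9 lower (16.8% and 15.4% of all genes), and DESeq2 called 0 higher. For 25 genes the libraries of the subsets overlapped, 17 lay apart downward and 6 upward, beside 29.8% and 32.1% of all genes. The 4 calls were not stable: 0 genes were called lower with scaling by library totals. They were also lost without replicate 1 of CD115+Ly6C- or without a library of CD115-Ly6C-. Without CD115+Ly6C- replicate 2, Ftsj3 of the 4 remained and Nop56 was added. Such fits leave 1 library in a subset, so the losses do not show that the calls rested on the library left out. Without CD115+Ly6C- replicate 1 the median was -0.02, and without replicate 2 it was -0.20.

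The widest contrast was CD115-Ly6C- against CD115+Ly6C+. Here 10 genes were called higher (Polr1a, Polr1b, Ubtf, Mybbp1a, Ddx21, Utp20, Tsr1, Rrp12, Nop2 and Mdn1) and 4 lower (Fbl, Nhp2, Emg1 and Nop16), 29.2% of the 48 beside 39.3% of all genes tested. The 10 higher were 20.8% of the 48, beside 20.1% of all genes, a share near the background. The 4 lower were 8.33%, beside 19.2% of all genes, a share below it. The median log2 fold change was 0.21 (0.03 over all genes), with 33 values above 0 and 15 below. Libraries lay apart upward for 24 genes and downward for 12, where all genes gave 37.8% and 34.8%. Without CD115+Ly6C+ replicate 2 the calls were 3 higher and 2 lower and the median was 0.10, and without CD115-Ly6C- replicate 1 there were 3 higher. Scaling by library totals moved the median of all genes by 0.19 and the share of all calls that were higher from 51.1% to 69.8%. It then called 21 of the 48 higher (43.8%) and 3 lower (6.25%), where 5022 of the 12127 genes tested were called in either direction. The share called higher lay above the background under that scaling. The median of the set relative to that of all genes was 0.18 under both scalings. The 3 comparisons share libraries and are not independent of each other.

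Transcript length moved with these differences. Lengths here are those of the deposited data, which for Mdn1 and Polr1a were shorter than the annotated ones, as given at the end. For Mdn1 the length also differed between subsets. The 10 genes called higher in CD115-Ly6C- against CD115+Ly6C+ had lengths of 2626 to 8831 nucleotides and the 4 called lower of 1004 to 1734. Across the 48 genes, which share the same libraries, Spearman's rho of the log2 fold change with length was 0.67, and over all genes tested it was 0.33. In CD115+Ly6C+ against CD115+Ly6C- it was -0.68 over the 48 and -0.33 over all genes. The remaining contrast gave 0.35 and 0.18. When the trend of each library with length over all genes was removed before the test, 4 of the 10 higher calls (Polr1a, Polr1b, Mybbp1a and Nop2) and 1 of the 4 lower calls (Nop16) remained in the widest contrast and Nob1 was added, beside 15.5% of all genes higher and 16.3% lower. The median of the 48 then fell to 0.06. With the trend removed, Polr1a was no longer called in CD115+Ly6C+ against CD115+Ly6C-, where the median was -0.24 and 3.34% of all genes were called higher and 2.52% lower. Of the 4 lower calls in CD115-Ly6C- against CD115+Ly6C-, 3 remained, all but Nhp2, beside 7.49% of all genes higher and 6.16% lower. Whether the length trend is technical was not tested.

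**Figure D2:**
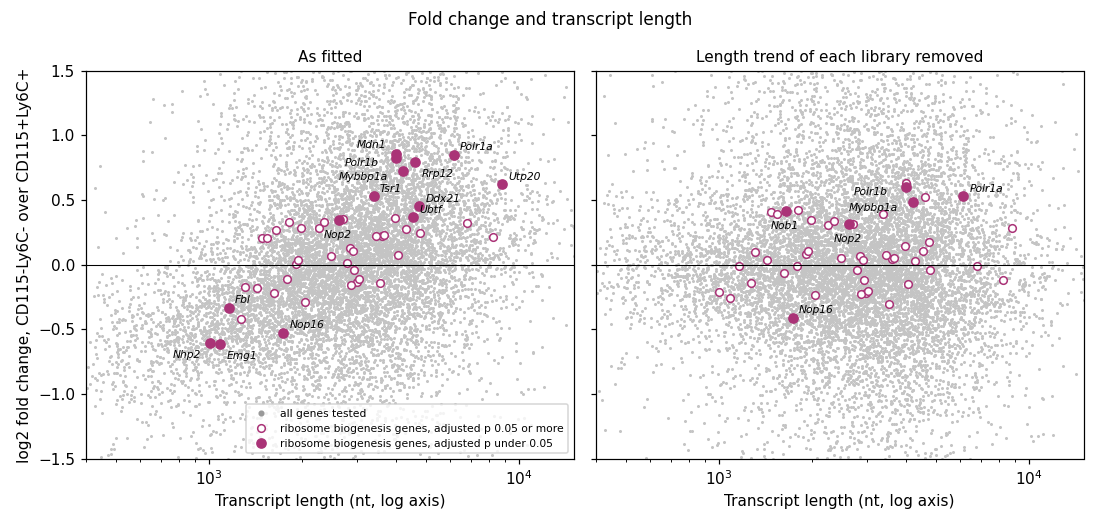
Log2 fold change of CD115-Ly6C- over CD115+Ly6C+ against transcript length (log axis, nucleotides) for all genes tested (grey) and the 48 ribosome biogenesis genes (circles, filled where called), as fitted (left) and with the length trend removed (right); the vertical axis is limited to 1.5 either way. On the left the filled circles of short genes lie below 0 and those of long genes above, with a Spearman's rho of 0.67 over the 48, which is 0.17 on the right.

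Among the 7 genes of RNA polymerase I transcription, 3 rose in CD115-Ly6C- against CD115+Ly6C+ and 1 fell in CD115+Ly6C+ against CD115+Ly6C-. Over all genes, 20.1% were called higher in the first of these comparisons and 4.34% lower in the second, and counts within a role are small. Polr1a (Entrez gene 20019, chromosome 6, 71909053 to 71979435, GRCm38) encodes the largest, catalytic subunit. Its level was 37.5 and 36.6 CPM for CD115+Ly6C-, 25.7 and 22.5 for CD115+Ly6C+, and 44.0 and 43.0 for CD115-Ly6C-. The 3 subsets did not overlap at all, with CD115+Ly6C+ lowest and CD115-Ly6C- highest. The log2 fold change was -0.62 (SE 0.14, edgeR adjusted p = 0.0286) in CD115+Ly6C+ against CD115+Ly6C-, and 0.85 (SE 0.14, edgeR adjusted p = 0.00179) in CD115-Ly6C- against CD115+Ly6C+, a 1.80-fold difference. The first call was lost when any 1 of the 4 libraries compared was left out (edgeR adjusted p 0.0625 to 0.142), and the second was kept under all 14 alternatives tried (up to 0.0227). CD115-Ly6C- against CD115+Ly6C- gave 0.23 (SE 0.13), which did not pass (edgeR adjusted p = 0.271).

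Polr1b (Entrez gene 20017, chromosome 2, 129100970 to 129128060) encodes the other large subunit of the catalytic core. It had 58.5 and 50.8 CPM for CD115+Ly6C-, 37.5 and 35.4 for CD115+Ly6C+, and 72.8 and 56.0 for CD115-Ly6C-. Its order of subsets was that of Polr1a, with an overlap between CD115+Ly6C- and CD115-Ly6C-. The log2 fold change of 0.82 (SE 0.16) in CD115-Ly6C- against CD115+Ly6C+ passed (edgeR adjusted p = 0.00426, up to 0.0307 over the alternatives), and that of -0.59 (SE 0.16) in CD115+Ly6C+ against CD115+Ly6C- missed the threshold (edgeR adjusted p = 0.0524). Ubtf, the upstream binding factor that holds ribosomal DNA open for transcription, had 112 and 118 CPM for CD115+Ly6C-, 108.5 and 87.7 for CD115+Ly6C+, and 125 and 128 for CD115-Ly6C-. Only the last comparison was called, at 0.37 (SE 0.12, edgeR adjusted p = 0.0428), and it was lost under 9 of the 14 alternatives, among them the removal of the length trend (0.53) and leaving out any library but CD115+Ly6C+ replicate 1.

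Polr1c, a subunit shared with RNA polymerase III, was the most abundant of the 7 per transcript length (FPKM). Its levels were 74.2 and 62.1 CPM for CD115+Ly6C-, 58.9 and 65.5 for CD115+Ly6C+, and 54.1 and 56.6 for CD115-Ly6C-. It thus did not follow the 2 large subunits, and no comparison passed. Rrn3, the initiation factor that recruits the polymerase, the subunit gene Polr1e and Taf1d, a part of the promoter selectivity factor, also passed no test. Their log2 fold changes were -0.45, 0.25 and -0.14 in CD115+Ly6C+ against CD115+Ly6C-, and 0.22, -0.14 and 0.21 for CD115-Ly6C- against CD115+Ly6C+.

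**Figure D3:**
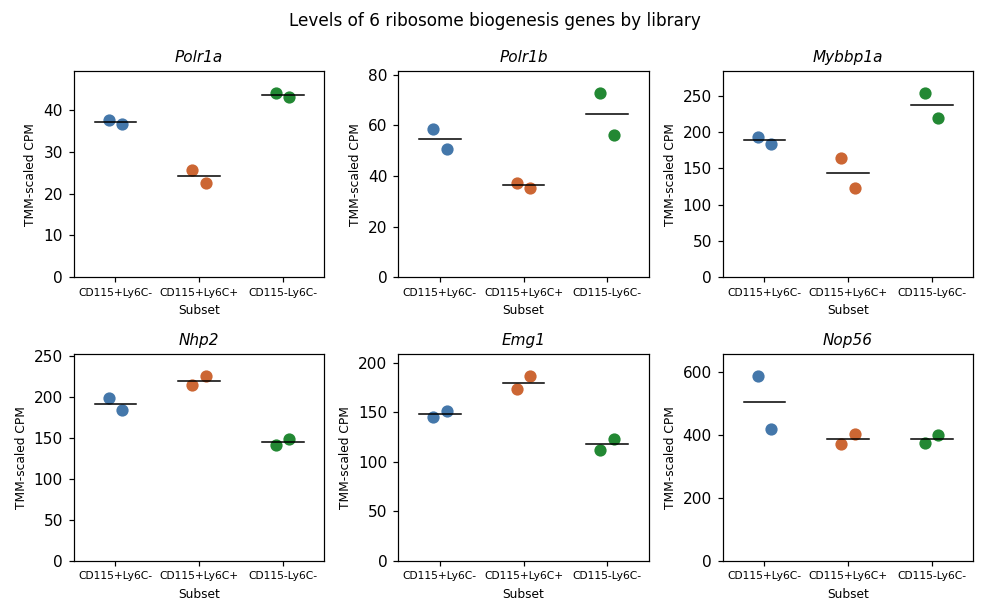
TMM-scaled CPM of 6 ribosome biogenesis genes in each library (points), with the mean of the 2 libraries of a subset as a line. Polr1a, Polr1b and Mybbp1a are lowest in both CD115+Ly6C+ libraries, whereas Nhp2 and Emg1 are highest there and lowest in CD115-Ly6C-.

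The 3 box C/D snoRNP genes encode the core of the particle that adds methyl groups to ribosomal RNA. Fbl, fibrillarin, the methyltransferase itself, had 148 and 147 CPM for CD115+Ly6C-, 172 and 152 for CD115+Ly6C+, and 136 and 121 for CD115-Ly6C-. It ran against most of the set, with CD115+Ly6C+ above both other subsets in both libraries. Its log2 fold change of -0.33 (SE 0.11) in CD115-Ly6C- against CD115+Ly6C+ passed (edgeR adjusted p = 0.0439) but was lost under 10 of the 14 alternatives, among them leaving out any 1 of the 6 libraries, with an edgeR adjusted p of 0.969 once the length trend was removed. Nop56, a scaffold protein and the most abundant of the 3, had 588 and 420 CPM for CD115+Ly6C-, 372 and 402 for CD115+Ly6C+, and 376 and 401.5 for CD115-Ly6C-. Replicate 1 of CD115+Ly6C- stood above the other 5 libraries, and no comparison passed. Without CD115+Ly6C- replicate 2, the log2 fold change in CD115-Ly6C- against CD115+Ly6C- was -0.60 (edgeR adjusted p = 0.0393). Nop58, its partner, had log2 fold changes of -0.46, -0.17 and 0.29 for CD115+Ly6C+ against CD115+Ly6C-, CD115-Ly6C- against CD115+Ly6C-, and CD115-Ly6C- against CD115+Ly6C+, none past the threshold.

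Of the 4 genes of the box H/ACA particle, which converts uridine to pseudouridine, and its chaperone Nopp140 (Nolc1), only Nhp2 changed. Nhp2 (Entrez gene 52530, chromosome 11, 51619773 to 51623718) encodes a core RNA-binding protein that telomerase also carries. Its levels were 198 and 183 CPM for CD115+Ly6C-, 214 and 225 for CD115+Ly6C+, and 142 and 148 for CD115-Ly6C-. CD115-Ly6C- lay below all other libraries. The log2 fold change was -0.40 (SE 0.10, edgeR adjusted p = 0.0345) against CD115+Ly6C- and -0.60 (SE 0.10, edgeR adjusted p = 0.00232) against CD115+Ly6C+. With the length trend removed both missed the threshold (edgeR adjusted p 0.142 and 0.164). Leaving out any 1 of the 4 libraries of the first comparison gave 0.067 to 0.226, and scaling by library totals 0.0837. The gene overlaps Rmnd5b, and the strandedness of the reads is not given in the sources used here. Dkc1, the pseudouridine synthase dyskerin, had log2 fold changes of -0.37, -0.24 and 0.13 in the 3 comparisons in the order above, and Nolc1 had -0.39, -0.16 and 0.23. Gar1 had 33.0 and 15.03 CPM in the CD115-Ly6C- libraries, a wider gap than between its subset means.

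Among the 4 abundant nucleolar proteins, Mybbp1a and Ddx21 rose in CD115-Ly6C- against CD115+Ly6C+, where 20.1% of all genes were called higher. Mybbp1a (Entrez gene 18432, chromosome 11, 72441327 to 72451770), a Myb-binding nucleolar protein linked to polymerase I transcription and processing of ribosomal RNA, had 194 and 184 CPM for CD115+Ly6C-, 164 and 122 for CD115+Ly6C+, and 254 and 219.5 for CD115-Ly6C-. All 3 subsets lay apart. The log2 fold change of 0.73 (SE 0.15, edgeR adjusted p = 0.00585), a 1.65-fold difference, held under all 14 alternatives (up to 0.0359); the gene overlaps Spns2. Ddx21, an RNA helicase, had 107 and 92.7, 79.7 and 63.7, and 99.9 and 96.4 CPM for CD115+Ly6C-, CD115+Ly6C+ and CD115-Ly6C-. Its 0.45 (SE 0.14, edgeR adjusted p = 0.0306) in the same contrast was lost with the length trend removed (0.339), without CD115+Ly6C+ replicate 2 (0.186) and without either CD115-Ly6C- library (0.113 and 0.0797).

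Npm1, nucleophosmin, a chaperone of pre-ribosomes, was the most abundant of the 48 genes on the FPKM scale, which divides by transcript length, at a mean of 640 FPKM. The lowest was Utp20 at 3.74 FPKM, and the median of the 48 was 39.9 FPKM against 10.1 over all genes tested. Npm1 had 755 and 849 CPM for CD115+Ly6C-, 923 and 775 for CD115+Ly6C+, and 770.1 and 731 for CD115-Ly6C-, with overlap between CD115+Ly6C- and each of the other subsets and no call. Ncl, nucleolin, passed no test either, at log2 fold changes of -0.29, -0.08 and 0.22 in the same order of comparisons as above.

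The 12 genes of the small subunit processome, the first large particle on the nascent transcript, had a median log2 fold change of -0.28 in CD115+Ly6C+ against CD115+Ly6C-, with 9 of 12 genes apart downward, where 28.4% of all genes were, but 0 of them passed the edgeR test. The median was 0.25 in CD115-Ly6C- against CD115+Ly6C+, and 1 gene rose and 1 fell. Over all genes, 9.6% were called in the first of these comparisons, and 20.1% were called higher and 19.2% lower in the second. Emg1 (Entrez gene 14791, chromosome 6, 124704370 to 124712186), a methyltransferase of the small subunit RNA, had 145.5 and 152 CPM for CD115+Ly6C-, 173 and 186 for CD115+Ly6C+, and 112 and 123 for CD115-Ly6C-. The 3 subsets did not overlap, with CD115+Ly6C+ highest. Its -0.61 (SE 0.11, edgeR adjusted p = 0.00248), 1.53-fold lower in CD115-Ly6C- than in CD115+Ly6C+, was lost only in the 2 fits with the length trend removed (0.091 and 0.128). The gene overlaps Lpcat3.

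Utp20, a very large scaffold of the processome, showed the opposite order. It had 37.9 and 30.03 CPM for CD115+Ly6C-, 26.8 and 22.0 for CD115+Ly6C+, and 39.4 and 35.9 for CD115-Ly6C-. The log2 fold change in CD115-Ly6C- against CD115+Ly6C+ was 0.62 (SE 0.17, edgeR adjusted p = 0.0198), and it was lost with the length trend removed (0.178), without CD115+Ly6C+ replicate 2 (0.118) and without CD115-Ly6C- replicate 1 (0.0908). Noc4l, which binds the processome factor Nop14, had 122 and 114, 109 and 104, and 86.1 and 88.6 CPM for CD115+Ly6C-, CD115+Ly6C+ and CD115-Ly6C-. CD115-Ly6C- lay below all other libraries, and the -0.43 (SE 0.10) against CD115+Ly6C- was called (edgeR adjusted p = 0.0277), though not when any 1 of the 4 libraries compared was left out (0.0638 to 0.19) or with scaling by library totals (0.0731).

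The other 9 processome genes, Wdr43, Wdr75, Utp4, Utp15, Heatr1, Rrp9, Rcl1, Bms1 and Nop14, passed no test. Wdr43 had 340 and 258 CPM for CD115+Ly6C-, 186 and 226 for CD115+Ly6C+, and 225 and 256.5 for CD115-Ly6C-, with a log2 fold change of -0.54 in CD115+Ly6C+ against CD115+Ly6C-. All 9 values in that comparison were below 0, from -0.08 in Rrp9 to -0.54 in Wdr43.

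The 4 genes of late 40S assembly had a median log2 fold change of 0.40 in CD115-Ly6C- against CD115+Ly6C+, and 2 rose, where 20.1% of all genes were called higher. Tsr1, a GTPase-like factor of the pre-40S particle, had 110.1 and 79.4 CPM for CD115+Ly6C-, 67.5 and 59.0 for CD115+Ly6C+, and 90.2 and 92.5 for CD115-Ly6C-. CD115+Ly6C+ lay below all other libraries, and the log2 fold change was 0.53 (SE 0.16, edgeR adjusted p = 0.0298), lost under 6 of the 14 alternatives, among them each that left out 1 of the 4 libraries compared (0.0514 to 0.155). The gene overlaps Srr. Rrp12, an export factor of pre-ribosomes, had 23.8 and 30.6, 22.6 and 14.6, and 39.0 and 25.8 CPM for CD115+Ly6C-, CD115+Ly6C+ and CD115-Ly6C-. Its replicates were far apart in every subset, and the 0.80 (SE 0.27, edgeR adjusted p = 0.0416) was not called without replicate 2 of CD115+Ly6C+ (0.217), without replicate 1 of CD115-Ly6C- (0.245) or without a library of CD115+Ly6C- (0.0538 and 0.0599), nor with the length trend removed (0.135). Nob1, the nuclease that makes the last cut in the small subunit RNA, had 82.9 and 84.6, 68.2 and 64.6, and 80.3 and 80.2 CPM. CD115+Ly6C+ was again the lowest, and the difference of 0.27 did not pass (edgeR adjusted p = 0.0727). It passed with the length trend removed (0.41, edgeR adjusted p = 0.0202, and 0.0313 with the replicate block as well) and with scaling by library totals (0.46, edgeR adjusted p = 0.00949). Ltv1, an export adaptor, had log2 fold changes between -0.11 and 0.00.

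In the 14 genes of 60S assembly the directions were mixed. Mdn1, midasin, the giant ATPase that pulls factors off the pre-60S particle, had 34.4 and 22.4 CPM for CD115+Ly6C-, 19.1 and 15.3 for CD115+Ly6C+, and 32.7 and 29.4 for CD115-Ly6C-. CD115+Ly6C+ lay below all other libraries, at 0.85 (SE 0.22, edgeR adjusted p = 0.0164) for CD115-Ly6C- against it, a call lost with the length trend removed (0.0534), without CD115+Ly6C+ replicate 2 (0.0991) and without CD115-Ly6C- replicate 1 (0.0639). Nop2, a cytosine methyltransferase of the large subunit RNA, had 118 and 119, 97.9 and 100.6, and 126.5 and 126 CPM for CD115+Ly6C-, CD115+Ly6C+ and CD115-Ly6C-. The 3 subsets lay apart with close replicates, and the 0.35 (SE 0.10) in the widest contrast passed (edgeR adjusted p = 0.0221, and 0.0398 with the length trend removed), though not when any 1 of the 4 libraries compared was left out (0.0797 to 0.104). Nop16 (Entrez gene 28126, chromosome 13, 54584191 to 54590097), a nucleolar protein named as a Myc target in other systems, had 121 and 98.3, 123 and 126, and 83.6 and 88.8 CPM. CD115-Ly6C- lay below all other libraries, and -0.53 (SE 0.12) against CD115+Ly6C+ passed (edgeR adjusted p = 0.0105, and 0.0397 with the length trend removed), but not without CD115+Ly6C+ replicate 2 (0.0518) or without CD115-Ly6C- replicate 1 (0.0681).

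Wdr12, of the complex with Pes1 and Bop1, and Ftsj3, a methyltransferase linked to processing of the transcript, fell in CD115-Ly6C- against CD115+Ly6C-. Wdr12 had 151 and 135 CPM for CD115+Ly6C-, 113 and 115 for CD115+Ly6C+, and 112.5 and 109 for CD115-Ly6C-, and Ftsj3 had 176 and 147, 127 and 136, and 117 and 119. For both genes CD115+Ly6C- lay above all other libraries. The log2 fold changes were -0.36 (SE 0.10, edgeR adjusted p = 0.0489) and -0.45 (SE 0.12, edgeR adjusted p = 0.0365). Wdr12 lost its call when any 1 of the 6 libraries was left out (0.067 to 0.241), and Ftsj3 without replicate 1 of CD115+Ly6C- (0.209) or a library of CD115-Ly6C- (0.192 and 0.11). With scaling by library totals neither passed (0.139 and 0.0805). Wdr12 overlaps Carf and Ftsj3 overlaps Ddx42. Ebna1bp2, the most abundant of the 14 per transcript length, had 134 and 110.1, 107 and 122.5, and 97.8 and 99.9 CPM and passed no test. Neither did Pes1, Bop1, Noc2l, Noc3l, Rrp1b, Nip7, Gnl2 and Gnl3. Pes1 and Bop1 were close in all subsets, at -0.16 and -0.05 in CD115+Ly6C+ against CD115+Ly6C-, whereas Noc3l had -0.58 there.

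Over the 26 genes that passed no test and were not the most abundant of their role, the log2 fold changes ran from -0.58 to 0.55, from -0.34 to 0.16 and from -0.42 to 0.36 in the 3 comparisons in the order used above. The lowest edgeR adjusted p values were 0.0572, 0.102 and 0.0604.

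A further 132 pathway genes, listed by role and not by value, were set beside the 48, and 131 of them were tested. Of these, 8 rose and 26 fell in CD115-Ly6C- against CD115+Ly6C+, with a median log2 fold change of -0.11. These were 6.11% and 19.8% of the 131, beside 20.1% and 19.2% of all genes, so the share that fell was near the background. With the length trend removed 5 rose and 14 fell (3.82% and 10.7%, beside 15.5% and 16.3% of all genes). The balance of the 131 turned with scaling by library totals, to 21 higher and 7 lower (median 0.08), so the direction of this list rested on the scaling. A further comparison, CD115-Ly6C- against CD115+Ly6C-, had 2 higher and 11 lower (median -0.14), 1.53% and 8.4% beside 8.43% and 6.78% of all genes. This turned to 4 higher and 2 lower with scaling by library totals (median -0.01). In CD115+Ly6C+ against CD115+Ly6C-, 1 rose and 1 fell (median -0.06), 0.763% each, beside 5.26% and 4.34% of all genes. Exosc8, a subunit of the exosome that trims ribosomal RNA, had 239 and 201 CPM for CD115+Ly6C-, 221 and 264 for CD115+Ly6C+, and 114 and 139.6 for CD115-Ly6C-. It lay lowest in CD115-Ly6C-, at -0.94 (SE 0.15, edgeR adjusted p = 0.00162) against CD115+Ly6C+. Rpp30, a subunit of the nucleases RNase P and RNase MRP, had -0.85 (SE 0.12, edgeR adjusted p = 0.00108) in the same contrast. The helicase gene Ddx54 rose there, at 0.97 (SE 0.13, edgeR adjusted p = 6.76e-04), and CD115-Ly6C- had 132 and 123 CPM.

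The 79 cytosolic ribosomal protein genes, the products that assembly factors put in place, had medians of the opposite sign to those of the 48 in the contrasts with CD115+Ly6C+. In CD115-Ly6C- against CD115+Ly6C+, 23 fell and 0 rose in the edgeR test (median -0.35), 29.1% and 0% beside 19.2% and 20.1% of all genes. In CD115+Ly6C+ against CD115+Ly6C-, 2 rose (median 0.36), 2.53% beside 5.26% of all genes. The ribosomal protein genes are short. With the length trend removed 3 rose and 1 fell in the first of these comparisons (3.8% and 1.27%, beside 15.5% and 16.3% of all genes). Their median there was then 0.16, so their direction depended on that step. Scaling by library totals gave 2 higher and 5 lower, with a median of -0.16. Of 7 subunit genes of RNA polymerase II, 1 rose and 4 fell in CD115-Ly6C- against CD115+Ly6C+, and of 11 of RNA polymerase III, 2 rose and 0 fell in the edgeR test. Over all genes, 20.1% were called higher and 19.2% lower there, and these polymerase lists are small. With the length trend removed 0 of the polymerase II genes and 1 of the polymerase III genes were called, the latter higher, and with scaling by library totals 1 polymerase II gene was higher and 2 were lower, and 5 polymerase III genes were higher.

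**Figure D4:**
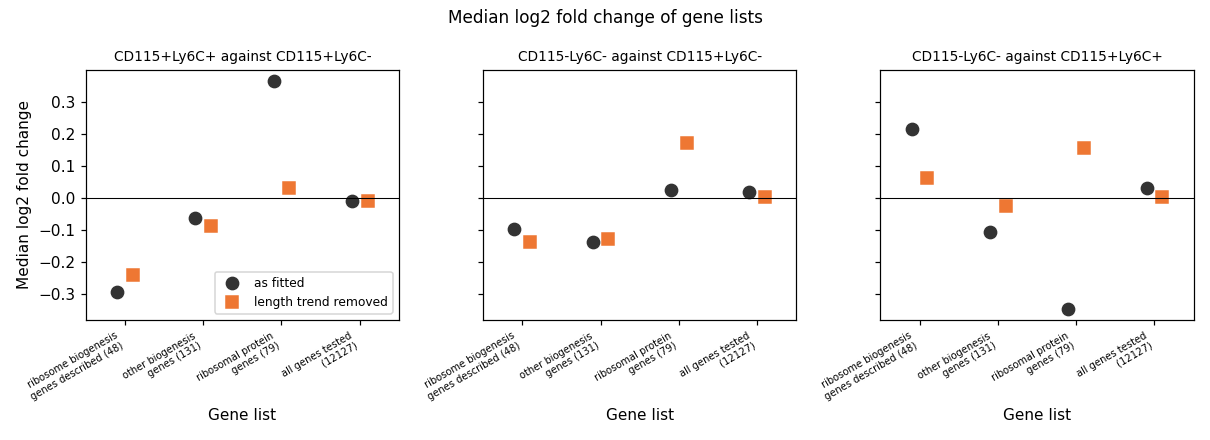
Median log2 fold change of each gene list in the 3 comparisons, as fitted and with the length trend removed. The 48 genes sit at -0.30 in CD115+Ly6C+ against CD115+Ly6C- and the ribosomal protein genes at 0.36 as fitted, which becomes 0.03 with the trend removed.

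Myc itself had 236 and 199.9 CPM for CD115+Ly6C-, 137 and 139 for CD115+Ly6C+, and 316 and 310.2 for CD115-Ly6C-. The 3 subsets lay apart, in the order of Polr1a. Its log2 fold changes were -0.66 (SE 0.11, edgeR adjusted p = 0.0121) in CD115+Ly6C+ against CD115+Ly6C-, 0.52 (SE 0.11, edgeR adjusted p = 0.0190) in CD115-Ly6C- against CD115+Ly6C-, and 1.18 (SE 0.11, edgeR adjusted p = 1.46e-04) in CD115-Ly6C- against CD115+Ly6C+. The first pair of calls was lost under at least 1 alternative (up to 0.0854 and 0.113), and the last was kept under all 14. Mycn, its relative, had 20.6 and 14.6 CPM for CD115-Ly6C- and at most 0.84 in the other libraries. Mycl, a further relative, had a log2 fold change of 0.42 in CD115+Ly6C+ against CD115+Ly6C- and passed no test. With TMM scaling, 13 of the 48 genes had their highest mean in CD115-Ly6C-, where Myc was highest, and 26 in CD115+Ly6C-. In CD115-Ly6C- against CD115+Ly6C-, 15 of the 48 log2 fold changes were then above 0 and 33 below. Scaling by library totals gave 28 above 0 and 20 below, so the order of these 2 subsets rested on the scaling. In that comparison, where Myc was called higher, 0 of the 48 were, beside 8.43% of all genes tested. A relation of the 48 genes to Myc was not tested.

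Promoter sequence was read from RefSeq (GRCm38.p6) for the 43 of 48 genes with an entry, over 250 bases before to 50 after the start. The E-box CACGTG, the motif that Myc with its partner Max binds, and which reads the same on both strands, was in 10 windows, 23.3%, against 11.9% of the 9416 tested genes with a window. The motif CCGGAAG, of the ETS family, searched on both strands, was in 17 (39.5%, against 21.1%), AAGATGGC, of YY1, in 1 (2.33%, against 5.53%), and the palindrome of 10 letters that begins TCTCG in 0 (against 1.23%). No motif contains another, and all were chosen after the values were seen. Of the genes with a window, 5 of the 9 called higher in CD115-Ly6C- against CD115+Ly6C+ held an E-box (Mybbp1a, Utp20, Tsr1, Nop2 and Mdn1), 0 of the 3 called lower did, and 5 of the 31 not called did (Rrn3, Wdr43, Utp4, Ltv1 and Pes1). These are small counts with no test. A match is a letter string, not a bound site. Polr1a, Polr1b, Ubtf and Ddx21, also called higher, had no E-box in their windows. Whether the motif bears on the levels was not tested. The 30-base stretches around the E-box of the 5 called genes are shown 5′ to 3′ on the gene's strand, with the E-box in capitals.
Mdn1, chr4:32657139-32657168, plus strand: caacgtgaattccttcacCACGTGtgtgtc
Nop2, chr6:125131811-125131840, plus strand: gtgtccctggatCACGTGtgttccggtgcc
Utp20, chr10:88826765-88826794, minus strand: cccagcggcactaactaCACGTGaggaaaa
Mybbp1a, chr11:72441347-72441376, plus strand: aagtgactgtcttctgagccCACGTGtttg
Tsr1, chr11:74898092-74898121, plus strand: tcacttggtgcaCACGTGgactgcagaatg
In Nop2 the E-box began 60 bases before the annotated start. In the other 4 it lay after the start, at 38 bases in Mdn1, 37 in Utp20, 40 in Mybbp1a and 24 in Tsr1. Of the 10 genes with an E-box, 8 (80%) had one after the start, within the first 50 transcribed bases, against 182 of 1117 tested genes with an E-box (16.3%).
The uncalled Pes1, at -0.05 in CD115-Ly6C- against CD115+Ly6C- and 0.11 in CD115-Ly6C- against CD115+Ly6C+, has the same motif at its start, for comparison with the called genes.
Pes1, chr11:3963965-3963994, plus strand: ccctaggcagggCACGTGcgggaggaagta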

How the data were processed

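Per the file headers, the deposited sample tables give expected counts estimated by RSEM, of which 12.6% were not whole (tolerance 1e-06), and FPKM. Per the submitters' processing notes, the tools were Bowtie2 and RSEM and the build was mm10. Their versions, the strand setting and the annotation were not given in the sources used here. FPKM in the authors' deposited series table matched those of the samples (largest difference 0.0). Of the entries, 778 carried only a number of the submitters' own.

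Expected counts were rounded and tested with the edgeR 4.0.16 quasi-likelihood test (R 4.3.3). Genes were kept by filterByExpr (minimum count 10, total 15), which left 12127 and all 48 ribosome biogenesis genes, whose lowest count in a library was 211. Scaling was TMM, all 6 libraries entered 1 fit with a coefficient per subset, and p-values were Benjamini-Hochberg adjusted over all genes (threshold 0.05). SE is the log2 fold change over the square root of F. The biological coefficient of variation was 15.2%, with 3 residual degrees of freedom. Intervals and calls cover counting error and the spread of these libraries only. Steps were tested on simulated data.

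Symbols and positions came from RefSeq GRCm38.p6 (15332 identifiers matched). Of the listed further pathway genes, Polr1f, Polr1g and Polr1h had no match, and Utp25 and Mtrex were matched under the older symbols Diexf and Skiv2l2. Overlap with coding genes, which touched 15 of the 48, was read from gene spans. The length trend was removed by a lowess curve of each library's log2 deviation on log2 length. Other alternatives were DESeq2 1.42.0, its size factors, library totals, no filter, a fit of the compared subsets only, a replicate block and leaving out each library. The genes, lists and tests were chosen with earlier results of these data known. Values in every library are given for genes past the threshold in at least 1 comparison and for the most abundant gene by FPKM in each of 7 roles, with up to 4 other pathway genes per comparison. Wdr43, Gar1, Noc3l and Pes1 were singled out after their values were seen.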

Additional observations from a re-analysis of the deposited data

How the results depend on the processing

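Of 19 calls of single genes, 3 were kept under all 14 alternatives (Polr1a, Polr1b and Mybbp1a in CD115-Ly6C- against CD115+Ly6C+) and 16 were lost under at least 1. In CD115+Ly6C+ against CD115+Ly6C-, the 1164 genes called became 1810 with no filter, 711 with the length trend removed, 690 with the replicate block and length trend removed, and 220 to 1139 with a library left out. The 1 lower call among the 48 became 12 with library totals, 10 with no filter, 8 with DESeq2, 2 in the fit of the compared subsets only, 2 with the replicate block, 0 with the length trend removed with or without the block, and 0 to 3 with a library left out, and the median of -0.30 became -0.34 to -0.21. In CD115-Ly6C- against CD115+Ly6C-, the 1844 genes called became 485 to 1744 with a library left out. The 4 lower calls became 0 with library totals, 1 with the replicate block, 1 with block and length trend removed, and 0 to 3 with a library left out. The median of -0.10 became 0.0262 with library totals, 0.0224 in FPKM, and -0.20 to -0.0187 with a library left out. In CD115-Ly6C- against CD115+Ly6C+, the 4768 genes called became 2983 to 4632 with a library left out. The 10 higher calls became 21 with library totals, 5 with the length trend removed, 5 with the block as well, and 3 to 9 with a library left out, and the 4 lower calls 1, 0 and 2 to 3 for the last 3 of these. The median of 0.21 became 0.40 with library totals, 0.40 in FPKM, 0.0613 with the length trend removed, 0.0656 with the block as well, and 0.10 to 0.21 with a library left out. With library totals, 38.4% of all calls were higher in the first comparison (54.8% with TMM), 74.3% in the second (55.4%) and 69.8% in the third (51.1%). Beyond fewer samples or genes, the cause of each shift was not tested.

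Deviations of same-numbered libraries from their subset means had correlations of -0.00399, -0.0104 and 0.152 over genes, which gave little sign of pairing. With 2 libraries a subset, this cannot show whether same-numbered libraries were sorted or prepared together. A library left alone in its subset is assumed to vary like the others. With 2 libraries a subset and a biological coefficient of variation of 15.2%, 0 of the 48 genes differed by 2-fold, and most of their differences did not pass.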

Other observations

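Replicate 1 of CD115+Ly6C- was above replicate 2 for 38 of the 48 ribosome biogenesis genes, with a median log2 ratio of 0.18, where the median over all genes was 0. In CD115+Ly6C+ it was above for 33 genes (0.10) and in CD115-Ly6C- for 27 (0.04). In CD115+Ly6C- the widest ratio upward was that of Mdn1 (0.62), and Rrp12 had the widest in the other direction (-0.36).

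The transcript length that the files use for Mdn1 averaged 4005 nucleotides over the libraries, whereas the coding transcripts of GENCODE M21 run from 17959 to 17970. FPKM values and the length trend step for this gene rest on the lengths in the files. The Mdn1 length also differed between subsets. It was 3920 and 4142 nucleotides for CD115+Ly6C-, 3662 and 3349 for CD115+Ly6C+, and 4777 and 4182 for CD115-Ly6C-. The longest was 1.43 times the shortest, in the direction of the Mdn1 call of 0.85 in CD115-Ly6C- against CD115+Ly6C+. The edgeR test used counts without a correction for such a difference, and its part in that call was not tested. Polr1a had 6145 nucleotides in the files against 9216.

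Nol6, of the small subunit processome and outside the 48, had 16.8 and 28.2 CPM for CD115+Ly6C-, 28.3 and 20.9 for CD115+Ly6C+, and 54.8 and 45.7 for CD115-Ly6C-. It rose by 1.16 (SE 0.25, edgeR adjusted p = 0.0199) in CD115-Ly6C- against CD115+Ly6C-, with an edgeR adjusted p of up to 0.108 over the alternatives.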
